A study of Mus musculus with 10 samples.

Results

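The Dlx genes encode homeobox transcription factors related to Drosophila Distal-less. The array probes analysed here lie at the 3 mouse loci that hold them as neighbouring pairs, Dlx1 with Dlx2 on chromosome 2, Dlx5 with Dlx6 on chromosome 6 and Dlx3 with Dlx4 on chromosome 11. Members were all non-control probes whose position on the mouse build mm9 falls in a window around each pair. This gave 88 of 88737 probes on the array, 32 at Dlx1/Dlx2, 24 at Dlx5/Dlx6 and 32 at Dlx3/Dlx4. Probes whose starts lay at most 500 bp apart were joined into a cluster. The 88 probes form 13 of the array's 15538 clusters. They are lettered from A in order of position within each locus, and 12 of them hold at least 3 probes. The files name probes by position only and the gene positions at hand are on another build, so clusters are assigned to a pair and not to 1 gene of it. In the RefSeq gene table the order along the chromosome is Dlx1 then Dlx2, Dlx6 then Dlx5, and Dlx3 then Dlx4.

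In the embryonic forebrain, Dlx1, Dlx2, Dlx5 and Dlx6 act in the progenitors of GABAergic interneurons and are needed for their migration and differentiation. Dlx3 and Dlx4 are better known from skin, teeth, bone and placenta. The genes of a pair are transcribed toward each other and share enhancers in the DNA between them. The CpG islands of such developmental regulators are often unmethylated in normal tissue, and gain of DNA methylation there is mostly described in tumours.

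DNA was taken from the left hemibrain of male mice of the inbred strain C57BL/6j. Feeding began when the mice were 3 weeks old and lasted 24 weeks, with 3 diets planned to have equal calories. Their n-3:n-6 ratio of polyunsaturated fatty acids was 1:6 for the standard diet (STD, the control, 3 arrays), 1:1 for the balanced diet (BLD, 3 arrays) and 7:1 for the n-3 enriched diet (ERD, 4 arrays). Methylated DNA was pulled down with an antibody, labelled with Cy5 and hybridised with Cy3-labelled input DNA of the same sample to an array of CpG islands (MeDIP-chip). Whole hemibrain mixes neurons of all kinds with glia, so that a value is an average in which the lineages that use Dlx genes are a part.

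Every value below is the log2 ratio of immunoprecipitated over input DNA with the array's median probe set to 0. A value above 0 means more methylated DNA than at the median probe of that array. The ratio also follows the CpG density and the dye behaviour of a probe, and no dye swap was made, so levels of different probes are described and not tested. Since the labels name no animal for an array, a p-value here covers the spread between these samples only. No Dlx spot was saturated and no Dlx spot carried an outlier flag among the 880 spots. In both channels, 82.4% of Dlx spots were well above background, against 86.7% of all spots, and the Dlx share was 83.5% in ERD, 89.4% in BLD and 73.9% in STD. The interquartile range of all probes on an array, which scales every ratio, averaged 0.71 ± 0.08 over the ERD arrays (SD, n = 4), 0.61 ± 0.20 over BLD (SD, n = 3) and 0.47 ± 0.08 over STD (SD, n = 3). It was narrowest on BLD replicate 3 and STD replicate 3, at 0.38 on each. The ERD arrays lay on slides 1 and 2, which held no other diet. BLD replicates 1 and 2 lay on slide 3 and STD replicates 2 and 3 on slide 5. Only slide 4 was shared between diets, by BLD replicate 3 and STD replicate 1. A difference of ERD from another diet therefore cannot be told apart from one between slides. This also holds for the part of ERD in the trend. Slides 3 and 5 held no other diet either. Apart from slide 4, a difference between BLD and STD therefore cannot be told apart from one between slides.

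The promoters of Dlx1 and Dlx2 are shown because the number of CpG dinucleotides sets how much signal the antibody can give. Both come from RefSeq on GRCm38 and run from 250 bases before to 50 bases after the gene start, and capitals mark each CG. They cover chr2:71529195-71529494 on the plus strand and chr2:71546705-71547004 on the minus strand of GRCm38. Their overlap with the probes, which are placed on mm9, was not determined.
Dlx1: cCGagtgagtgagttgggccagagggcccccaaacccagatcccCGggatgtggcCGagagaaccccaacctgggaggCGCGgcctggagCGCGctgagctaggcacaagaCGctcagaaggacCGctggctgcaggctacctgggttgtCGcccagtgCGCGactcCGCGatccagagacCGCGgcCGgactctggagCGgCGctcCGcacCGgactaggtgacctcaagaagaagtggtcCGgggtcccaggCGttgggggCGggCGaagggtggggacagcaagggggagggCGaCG
Dlx2: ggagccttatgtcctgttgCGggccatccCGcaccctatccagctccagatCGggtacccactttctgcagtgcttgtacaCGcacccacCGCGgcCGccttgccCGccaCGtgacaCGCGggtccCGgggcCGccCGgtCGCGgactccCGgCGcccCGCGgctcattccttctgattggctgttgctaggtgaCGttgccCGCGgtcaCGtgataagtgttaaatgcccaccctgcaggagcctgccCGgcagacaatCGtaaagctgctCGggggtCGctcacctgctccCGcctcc
The Dlx1 promoter holds 27 CG in 300 bases, with a GC content of 69.3% and an observed-over-expected CpG ratio of 0.767. The Dlx2 promoter holds 29 CG, with a GC content of 66.3% and a ratio of 0.898. Over 32851 RefSeq promoters of this length the median was 7 CG, 15.5% held at least as many as Dlx1 and 12.9% at least as many as Dlx2. Promoter sequences matched 2 of the 6 genes.

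Methylation signal at the Dlx loci lay close to that of the median probe, and the pairs differed from each other by little. Averaged over its probes, Dlx1/Dlx2 stood at -0.07 ± 0.06 (SD over 10 arrays), Dlx5/Dlx6 at 0.04 ± 0.10 and Dlx3/Dlx4 at 0.06 ± 0.15. Dlx1/Dlx2 was below 0 on 9 of 10 arrays, while Dlx5/Dlx6 and Dlx3/Dlx4 were each above 0 on 7 of 10. The levels of Dlx5/Dlx6 and Dlx3/Dlx4 do not differ beyond their spread over arrays. Dlx5/Dlx6 stood at -0.04 with the probe length correction, at -0.02 over spots well above background and at 0.02 without BLD replicate 2, and Dlx3/Dlx4 at 0.03 without that array. Dlx1/Dlx2 stood at 0.04 with normexp background correction. The 56 probes of the forebrain pairs Dlx1/Dlx2 and Dlx5/Dlx6 had a mean of -0.02 ± 0.05. Subtracting the Dlx3/Dlx4 mean on the same array gave -0.08 ± 0.14 over the 10 arrays, below 0 on 8 and above 0 on ERD replicate 3 (0.18) and STD replicate 1 (0.05). This mean difference is smaller than its own SD, which is the spread of single arrays and not the error of the mean. It was -0.0071 with normexp background correction, -0.12 with the probe length correction and -0.14 over spots well above background, and it was not tested.

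The 12 clusters of at least 3 probes had a median level of -0.0032, against -0.05 over all 13835 such clusters of the array. Above 0 on all 10 arrays were 2 of the 12, where the background was 8.27% of all clusters, and 1 of the 12 was below 0 on all 10 arrays, where the background was 16%. Of single probes, 8 of 88 were above 0 on all 10 arrays (background 7.19%) and 7 of 88 below 0 (background 10.2%). Islands within 1 Mb on either side of the windows had a median of -0.11 at Dlx1/Dlx2 (14 clusters), -0.10 at Dlx5/Dlx6 (6 clusters) and 0.04 at Dlx3/Dlx4 (39 clusters), so the flanks of the forebrain pairs lay below those of Dlx3/Dlx4. Within the windows the cluster medians were -0.06 at Dlx1/Dlx2 (3 clusters), 0.05 at Dlx5/Dlx6 (5 clusters) and 0.04 at Dlx3/Dlx4 (4 clusters). By this measure Dlx5/Dlx6 was not below Dlx3/Dlx4. Hox genes are the other homeobox clusters of the same chromosomes. The 17 HoxA clusters of chromosome 6 had a median of -0.11, the 19 HoxD clusters of chromosome 2 one of -0.12 and the 19 HoxB clusters of chromosome 11 one of 0.02. The Hox windows were placed from general knowledge of mm9 and none of these comparisons was tested.

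**Figure D1:**
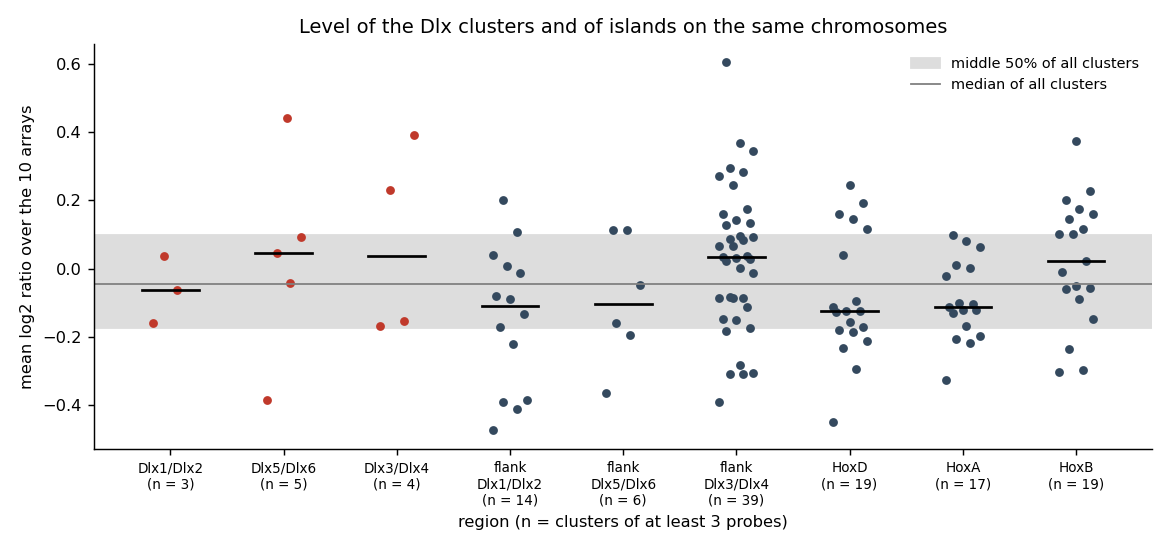
Mean log2 ratio over the 10 arrays (vertical axis) of each cluster of at least 3 probes, by region (horizontal axis), with black lines at the median of each region, a grey line at the median of all clusters and a grey band over the middle 50% of all clusters. Red points are the 12 Dlx clusters, which run from -0.38 to 0.44 and lie partly outside the band at Dlx5/Dlx6 and Dlx3/Dlx4.

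Within Dlx1/Dlx2, clusters B and D lay near 0 and clusters A and C below it on most arrays. The highest, cluster B (chromosome 2 from 71378997 to 71379702, 8 probes), read 0.17, 0.06, 0.08 and -0.0058 on the ERD arrays, -0.12, 0.02 and 0.06 on the BLD arrays and 0.08, -0.04 and 0.06 on the STD arrays. The diets overlap fully in this cluster. The lowest of those with at least 3 probes, cluster C (71381049 to 71381400, 3 probes), read -0.27, -0.51, -0.05 and 0.11 in ERD, 0.14, 0.37 and -0.08 in BLD and -0.39, -0.40 and -0.52 in STD. All STD arrays of cluster C lay below all BLD arrays, and ERD reached from one diet to the other. Cluster A (71367466 to 71367575) has 2 probes, stood at -0.35 ± 0.38 over the 10 arrays and was too short for the fit of clusters.

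Cluster D of Dlx1/Dlx2 (71382095 to 71385026) is the longest of the Dlx clusters, with 19 probes over 2932 bp. Its mean varied least of the Dlx clusters over the arrays, at -0.06 ± 0.05 (SD over 10 arrays). Its single probes spread widely around that mean. Probes 7 and 9 stood at 0.47 and 0.23, probes 13 to 16 at -0.28, -0.93, -0.40 and -0.33, and probe 18 at 0.44. Probes 14, 15 and 16 were below 0 on all 10 arrays and probes 9 and 18 above 0 on all 10. Probes 9, 13, 16 and 18 were well above background on all arrays, probes 7, 14 and 15 on 33.3% of the STD arrays, and probe 8 on none, so that its ratio is not given.

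**Figure D2:**
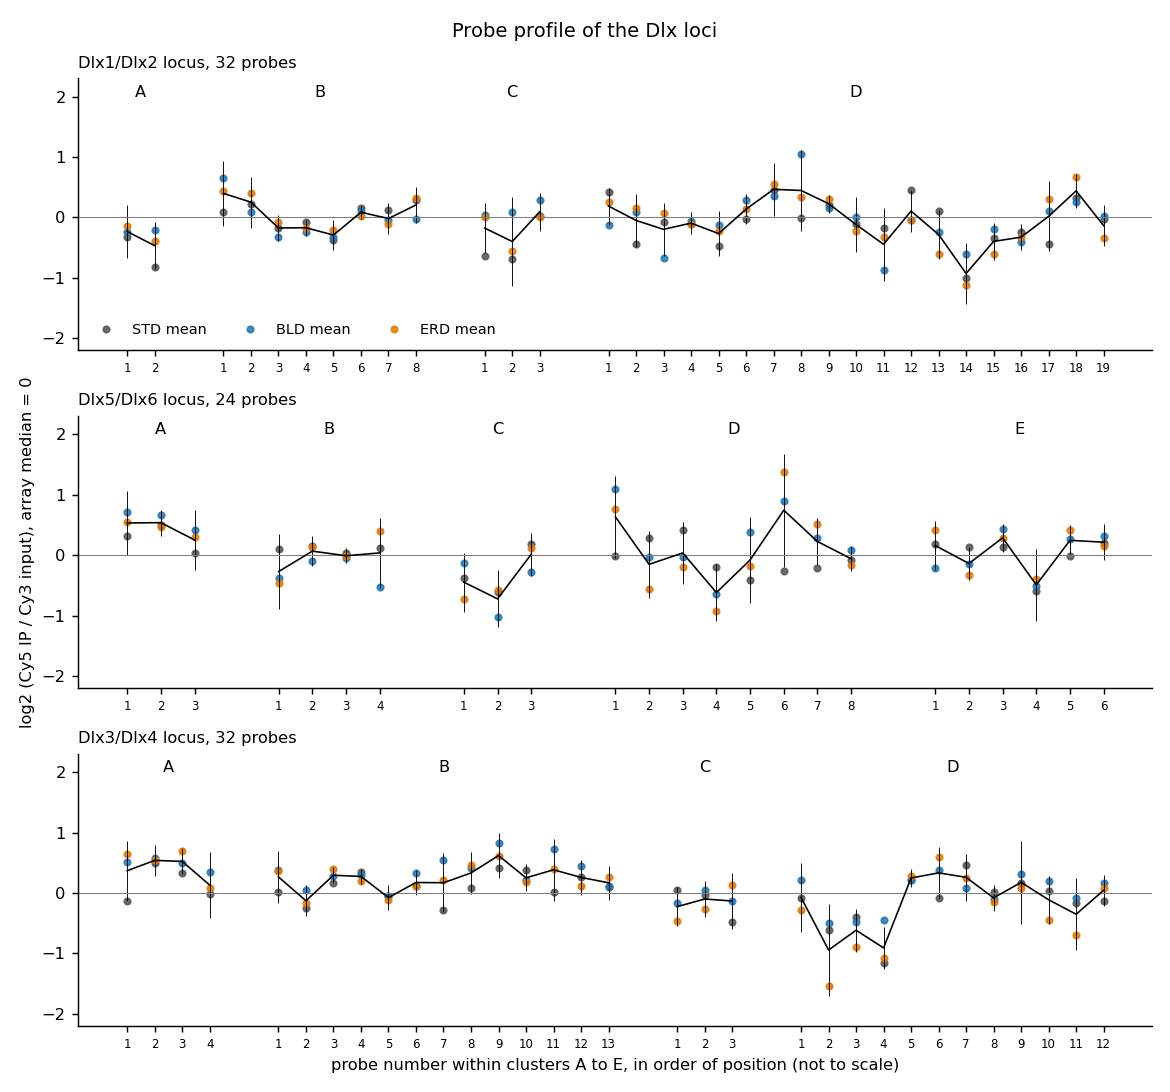
Mean log2 ratio of each probe (vertical axis) against its number within clusters A to E (horizontal axis, in order of position and not to scale) at the 3 Dlx loci. The black line and bars give the mean and SD over 10 arrays and coloured points the mean of each diet; probes within a cluster run from -0.93 to 0.47 in Dlx1/Dlx2 D and from -0.94 to 0.33 in Dlx3/Dlx4 D.

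Dlx5/Dlx6 held both the highest and the lowest of the Dlx clusters, which lie within 4 kb of each other. Cluster A (chromosome 6 from 6810707 to 6811027, 3 probes) read 0.52, 0.46, 0.50 and 0.29 in ERD, 0.26, 1.22 and 0.33 in BLD and -0.01, 0.44 and 0.43 in STD. It was above 0 on 9 of 10 arrays and at percentile 93.5 of all clusters by level, with BLD replicate 2 as the highest array. Cluster C (6813573 to 6814128, 3 probes) read -0.97, -0.13, -0.31 and -0.18 in ERD, -0.64, -0.63 and -0.18 in BLD and -0.31, -0.17 and -0.33 in STD. It was below 0 on all 10 arrays, at percentile 3.98, and all its spots were well above background. Corrected for probe length, cluster A stood at 0.11 and cluster C at -0.32, so the level of A depends on that correction. With normexp background correction, cluster A stood at 0.09 and cluster C at -0.12, with C above 0 on 3 of 10 arrays. This alternative starts from the median spot intensities before background subtraction and adds an offset of 50 to both channels. Such an offset narrows the ratios of dim spots, and its part in the values given with normexp was not tested.

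The other Dlx5/Dlx6 clusters lay between these. Cluster B (6812696 to 6813052, 4 probes) stood at -0.04 ± 0.22 (SD over 10 arrays), cluster D (6829220 to 6830320, 8 probes) at 0.09 ± 0.24 and cluster E (6831381 to 6831977, 6 probes) at 0.05 ± 0.16. Cluster D had the dimmest spots of the Dlx clusters in STD, with 45.8% well above background there, 65.6% in ERD and 79.2% in BLD. Its probe means ranged from -0.62 to 0.74, and the upper one was the highest of all 88 probes.

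The Dlx3/Dlx4 locus was split by position. Its first 2 clusters stood above 0 on every array, and its last 2 were below 0 on most, without normexp background correction. With it, cluster A stood at 0.13 and was above 0 on 9 of 10 arrays, and cluster D stood at 0.05 and was above 0 on 6 of 10. Cluster A (chromosome 11 from 94979430 to 94979907, 4 probes) read 0.61, 0.78, 0.19 and 0.38 in ERD, 0.67, 0.71 and 0.06 in BLD and 0.13, 0.23 and 0.14 in STD. Cluster B (94981310 to 94983261, 13 probes) read 0.16, 0.50, 0.10 and 0.18 in ERD, 0.38, 0.46 and 0.21 in BLD and 0.04, 0.20 and 0.07 in STD. They ranked at percentiles 92.2 and 86.9 of all clusters by level. STD was the lowest diet on average in both, with all 3 of its arrays at or under 0.23.

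Cluster D (95006289 to 95007686, 12 probes), the lowest of the locus, read -0.21, -0.33, -0.45 and -0.27 in ERD, -0.04, 0.18 and -0.15 in BLD and -0.31, -0.12 and 0.0044 in STD. The 4 ERD arrays lay below the 3 BLD arrays. Cluster C (95004513 to 95004753, 3 probes) stood at -0.15 ± 0.22 (SD over 10 arrays). In cluster D the low values came from probes 2, 3 and 4, at -0.94, -0.62 and -0.91, whereas probes 5, 6 and 7 stood at 0.25, 0.33 and 0.26. Probe 2 was well above background on 50% of the ERD, 66.7% of the BLD and 0% of the STD arrays. Probes 4, 6 and 7 were so on 66.7%, 33.3% and 0% of the STD arrays, and probe 7 on 75% of the ERD arrays. Probes 3 and 5 were well above background on all arrays. Probes 3 and 4 were below 0 on all 10 arrays and probe 5 above 0 on all 10.

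The 17 probes of clusters A and B exceeded the 15 probes of clusters C and D on all 10 arrays, by 0.43 ± 0.18 (SD over 10 arrays). This contrast was chosen after its values were seen and carries no test. It was 0.46, 0.81, 0.58 and 0.50 in ERD, 0.51, 0.35 and 0.34 in BLD and 0.38, 0.28 and 0.13 in STD, with every ERD array above every STD array. The spread of all ratios on an array was also wider in ERD than in STD, as given above. With all arrays scaled to one spread the contrast was 0.34 to 0.64 in ERD and 0.20 to 0.43 in STD, and the diets overlapped. With normexp background correction it was 0.05 and above 0 on 8 of 10 arrays.

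**Figure D3:**
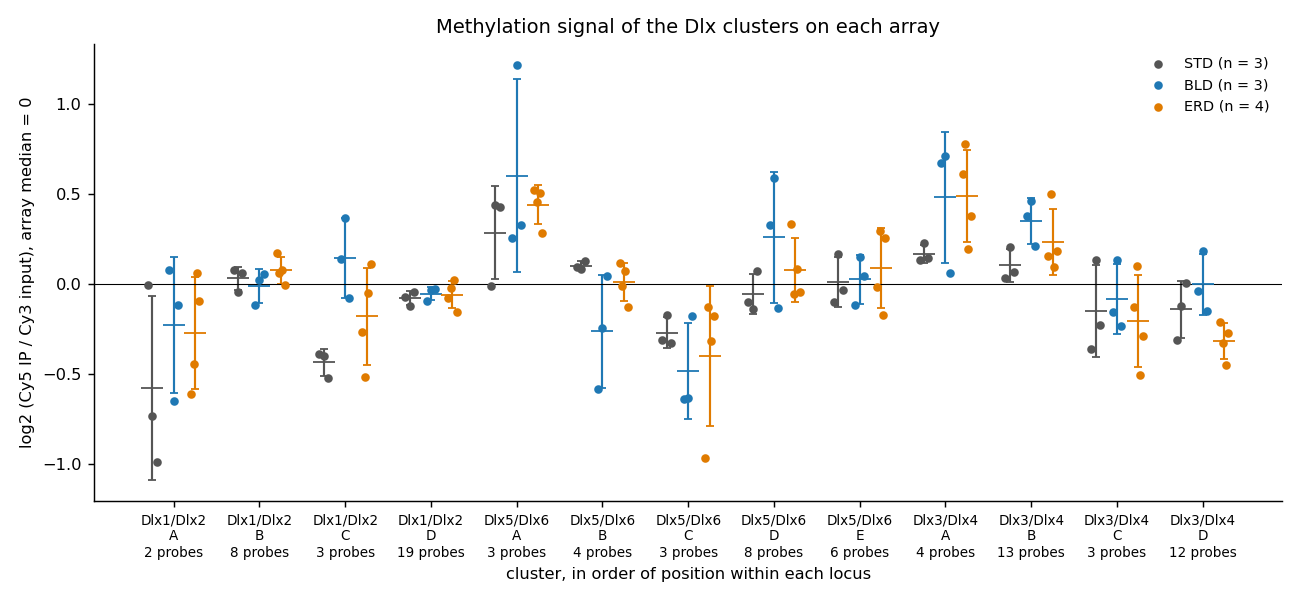
Log2 ratio of each Dlx cluster on each array (vertical axis, array median at 0), by cluster (horizontal axis, with its number of probes), for STD (grey, n = 3), BLD (blue, n = 3) and ERD (orange, n = 4). Horizontal ticks and bars give the mean and SD of a diet; Dlx3/Dlx4 A and B lie above 0 on all 10 arrays and Dlx5/Dlx6 C below 0 on all 10.

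The comparison of ERD with STD sets the 2 extremes of the n-3:n-6 ratio against each other. No Dlx cluster passed. Of 12 clusters, 0 had a limma adjusted p under 0.05 (background 0% of 13835 clusters), 0 had an unadjusted p under 0.05 (background 15.7%) and 0 had arrays that did not overlap between the diets (background 16.2%). The median difference over the 12 was 0.06, against 0.0033 over all clusters, and 8 of 12 were higher in ERD (background 50.6%). The lowest p belonged to Dlx3/Dlx4 A, where ERD averaged 0.49 ± 0.26 (SD, n = 4) and STD 0.17 ± 0.05 (SD, n = 3). The difference of ERD from STD was 0.32 ± 0.17 there (SE; limma adjusted p = 0.374). Next was Dlx1/Dlx2 C, with a difference of 0.26 ± 0.15 (SE; adjusted p = 0.415), which was 0.51 over spots well above background (limma adjusted p = 0.116), 0.44 with arrays scaled to one spread and 0.16 without ERD replicate 4. The count at an unadjusted p under 0.05 was 1 without ERD replicate 2, ERD replicate 3 or BLD replicate 3. It was also 1 with normexp, loess, quantile normalization, arrays scaled to one spread or array weights. The same held over spots well above background, with a gap of 300 bp and in fits of the compared diets only. In these alternatives the background ran from 8.72% (normexp) to 19.1% (spots well above background). The difference of Dlx3/Dlx4 A turned to -0.08 with normexp background correction.

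At single probes, 14 of 88 had an unadjusted p under 0.05 between ERD and STD (background 15% of 88737 probes), 7 higher in ERD (background 6.55%) and 7 lower (background 8.49%), and 0 passed after adjustment in limma (background 0%). The lowest p was at Dlx5/Dlx6 D probe 6 (6829974 to 6830032), which read 2.35, 0.85, 1.70 and 0.63 in ERD, 1.15, 1.45 and 0.07 in BLD and -0.04, -0.10 and -0.62 in STD. ERD lay above STD on every array there, by 1.64 ± 0.42 (SE; limma adjusted p = 0.153), and 25% of its ERD spots and 66.7% of its STD spots were well above background. The neighbouring probe 7 (6830173 to 6830222) read 0.93, 0.33, 0.53 and 0.25 in ERD and 0.04, -0.21 and -0.45 in STD. ERD exceeded STD by 0.72 ± 0.21 at probe 7 (SE; adjusted p = 0.178). Both differences turned negative with normexp background correction, to -0.23 and -0.33. Over spots well above background they were 0.92 and 0.47. These values rest on 25% of the ERD spots at probe 6 and on 33.3% of the STD spots at probe 7, a single array in each case. In the other direction, Dlx1/Dlx2 D probe 13 (71383919 to 71383963), well above background on all arrays, read -0.74, -0.20, -0.95 and -0.52 in ERD and -0.17, 0.30 and 0.17 in STD. That difference was -0.70 ± 0.22 (SE; adjusted p = 0.198), and -0.04 with normexp background correction.

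BLD against STD sets the 1:1 ratio against that of the standard diet. The largest difference among the 12 Dlx clusters was a higher signal in BLD at Dlx1/Dlx2 C, and it did not pass. BLD averaged 0.14 ± 0.22 (SD, n = 3) there and STD -0.44 ± 0.07 (SD, n = 3), with a difference of 0.58 ± 0.16 (SE; unadjusted p = 0.0034 in limma, adjusted p = 0.44). Dlx5/Dlx6 B went the other way, reading -0.58, -0.24 and 0.04 in BLD and 0.09, 0.08 and 0.13 in STD. BLD minus STD was -0.36 ± 0.14 (SE; adjusted p = 0.44), and -0.20 without BLD replicate 1 (limma adjusted p = 0.919, and no longer past an unadjusted 0.05). With normexp background correction the differences were 0.02 at Dlx1/Dlx2 C and -0.03 at Dlx5/Dlx6 B (limma adjusted p = 0.975 and 0.984), neither past an unadjusted 0.05. These were the 2 of 12 clusters with an unadjusted p under 0.05 (background 11.2%), 1 higher (background 7.31%) and 1 lower in BLD (background 3.89%), and 0 passed after adjustment in limma (background 0%). Arrays did not overlap in 3 of 12 clusters (background 17.4%), Dlx1/Dlx2 C and Dlx3/Dlx4 B higher in BLD (background 11.1%) and Dlx5/Dlx6 B lower (background 6.27%). The count of 2 became 5 without BLD replicate 3 (background 18.7%). It was 1 without BLD replicate 1 (background 4.44%) or without STD replicate 3 (background 7.58%). It was also 2 with normexp background correction (background 3.59%), in clusters other than Dlx1/Dlx2 C and Dlx5/Dlx6 B. The median difference was 0.10, against 0.03 over all clusters, and 9 of 12 were higher in BLD (background 56.7%). All 4 Dlx3/Dlx4 clusters were among these 9.

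BLD replicate 3 and STD replicate 1 share a slide, and between them the difference was 0.31 at Dlx1/Dlx2 C, 0.18 at Dlx3/Dlx4 B and -0.05 at Dlx5/Dlx6 B. Of the STD spots in Dlx1/Dlx2 C, 66.7% were well above background, against 100% of the BLD spots. Over spots well above background the difference of BLD from STD there was 0.65 (limma adjusted p = 0.457), and its cause was not tested. Of 88 probes, 10 had an unadjusted p under 0.05 between BLD and STD (background 10.5%), 8 higher in BLD (background 6.19%) and 2 lower (background 4.33%), and 0 passed after adjustment in limma (background 0%). The lowest p was at Dlx3/Dlx4 D probe 4 (95006662 to 95006706), with -0.24, -0.62 and -0.48 in BLD, -1.25, -1.22 and -0.99 in STD and -0.95, -1.16, -1.17 and -0.99 in ERD. BLD stood above both other diets on every array, by 0.71 ± 0.18 over STD (SE; limma adjusted p = 0.464). Next came Dlx5/Dlx6 D probe 1 (6829220 to 6829267), with 1.30, 1.86 and 0.15 in BLD, -0.38, 0.13 and 0.23 in STD and a difference of 1.11 ± 0.39 (SE). Dlx3/Dlx4 B probe 7 (94982345 to 94982392) read 0.80, 0.93 and -0.07 in BLD and -0.67, -0.07 and -0.10 in STD, a difference of 0.83 ± 0.30 (SE). Both had the same adjusted p as the first, and in both BLD replicate 3 lay among the STD arrays. With normexp background correction the differences of these 3 probes were 0.08, -0.29 and 0.26. At Dlx5/Dlx6 D probe 1, 33.3% of the BLD spots were well above background, and the difference was 0.27 over such spots and 0.73 without BLD replicate 2.

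**Figure D4:**
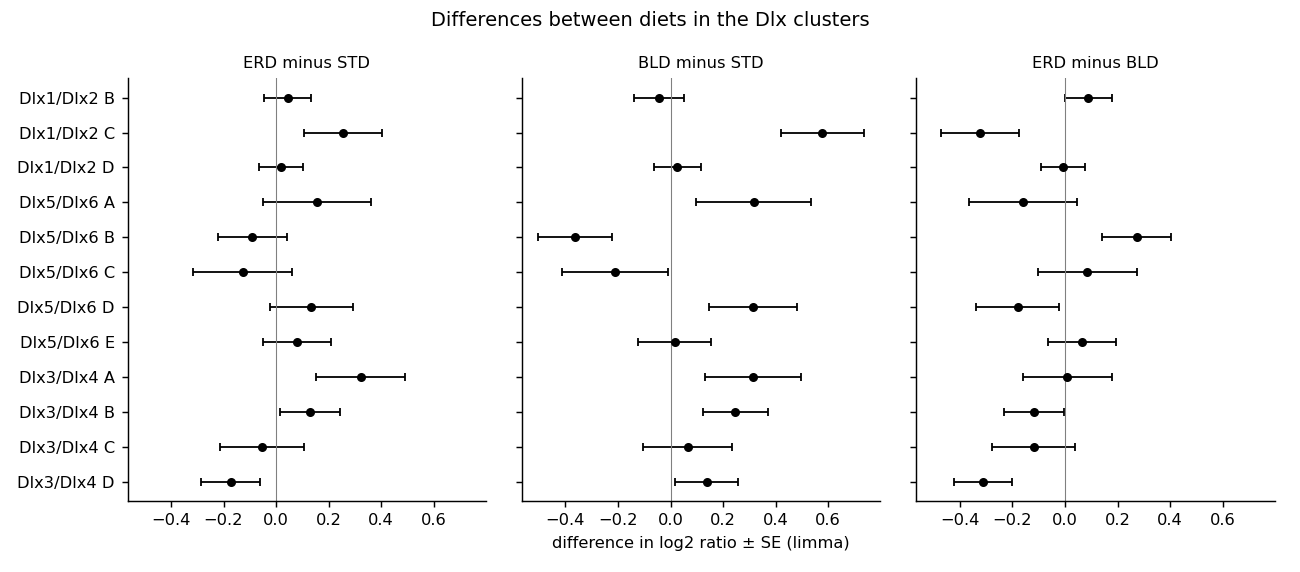
Difference in log2 ratio between diets with its SE from limma (horizontal axis) for the 12 Dlx clusters of at least 3 probes (vertical axis), with a line at 0, for ERD minus STD, BLD minus STD and ERD minus BLD. No difference has an adjusted p under 0.05; the widest is 0.58 at Dlx1/Dlx2 C between BLD and STD.

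ERD against BLD compares the 7:1 with the 1:1 ratio. Dlx3/Dlx4 D had the lowest p, with means of -0.31 ± 0.10 for ERD (SD, n = 4) and -0.0025 ± 0.17 for BLD (SD, n = 3). The difference was -0.31 ± 0.11 (SE; unadjusted p = 0.0165 in limma, adjusted p = 0.461). It was -0.01 with normexp background correction (limma adjusted p = 0.998), no longer past an unadjusted 0.05, and -0.21 over spots well above background. It was the 1 of 12 clusters with an unadjusted p under 0.05 (background 10.2%, and 6.71% for lower in ERD), and 0 passed after adjustment (background 0%). It was also the 1 cluster whose arrays did not overlap (background 10.1%, and 6.79% for lower in ERD). The count of 1 became 4 without BLD replicate 3 (background 11.8%) and 3 without ERD replicate 4 (background 10.1%). It was 2 without ERD replicate 3 (background 7.54%) and 0 without BLD replicate 2 (background 6.74%). Dlx1/Dlx2 C followed, with -0.32 ± 0.15 (SE; limma adjusted p = 0.492), which was -0.14 over spots well above background, -0.21 without ERD replicate 2 or without BLD replicate 2, and 0.03 with normexp background correction. The median difference was -0.06, against -0.03 over all clusters, and 5 of 12 were higher in ERD (background 43.6%). This comparison shares the BLD arrays with the one before, so the low ERD against BLD and the high BLD against STD at Dlx1/Dlx2 C are not independent.

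At single probes 6 of 88 had an unadjusted p under 0.05 between ERD and BLD (background 11.7%), 3 higher in ERD (background 5.57%) and 3 lower (background 6.12%), and 0 passed in limma after adjustment (background 0%). Dlx3/Dlx4 D probe 4, given above, was lower in ERD by a difference of -0.62 ± 0.17 (SE; limma adjusted p = 0.379). Dlx1/Dlx2 D probe 3 (71382362 to 71382406) read -0.03, 0.40, 0.03 and -0.09 in ERD and -0.94, -0.999 and -0.09 in BLD, with a difference of 0.75 ± 0.24 (SE; adjusted p = 0.379). Dlx5/Dlx6 B probe 4 (6813006 to 6813052) read 0.04, 0.09, 1.07 and 0.39 in ERD and -0.67, -0.91 and 0.01 in BLD, with a difference of 0.92 ± 0.31 (SE; adjusted p = 0.38). With normexp background correction these 3 differences were -0.14, 0.13 and 0.07. In the latter 2 probes BLD replicates 1 and 2 were low and BLD replicate 3 was close to the ERD arrays or just under them.

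Over the n-3:n-6 ratio from 1:6 to 7:1, no Dlx cluster passed the threshold for a trend. Of 12 clusters, 0 had an adjusted p under 0.05 in limma (background 0.0434%) and 0 an unadjusted one (background 15%), and 8 of 12 slopes were positive (background 50%). The unadjusted count was 1 with normexp background correction (background 8.98%), over spots well above background (18.8%) and with a gap of 300 bp (15.3%). It was also 1 without ERD replicate 3 (14.4%) or STD replicate 1 (14.9%). The slope with the lowest p was 0.06 ± 0.03 (SE; limma adjusted p = 0.417) per doubling of the ratio at Dlx3/Dlx4 A, and it turned to -0.01 with normexp background correction. Dlx3/Dlx4 D followed with -0.04 ± 0.02 (SE; adjusted p = 0.477), and -0.06 without STD replicate 1. Of 88 probes, 14 had an unadjusted p under 0.05 (background 14.6%), 7 with a positive slope (background 6.05%) and 7 with a negative one (background 8.54%), and 0 passed after adjustment (background 0%). The 3 probes of lowest p were those named for ERD and STD, with slopes of 0.30 ± 0.08, 0.13 ± 0.04 and -0.13 ± 0.04 (SE; adjusted p from 0.141 to 0.176), which normexp background correction took to -0.04, -0.06 and -0.0089.

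Other islands that moved over the arrays like the forebrain pairs were sought among 13823 clusters outside the windows. The mean of the 8 forebrain clusters was -0.02, 0.0098, 0.03 and 0.02 in ERD, -0.10, 0.18 and 0.0071 in BLD and -0.10, -0.02 and -0.03 in STD, with BLD replicate 2 as the highest array. Over the 10 arrays, Pearson's r with this profile was 0.97 for 8 probes on chromosome 9 from 99769081 to 99770199, 0.96 for 4 probes on chromosome 1 from 72258263 to 72258865 and 0.94 for 4 probes on chromosome X from 148771052 to 148771431. All 3 were also highest on BLD replicate 2, at 0.16, 0.09 and 0.59. The points share the arrays and their spread, and the 3 islands were picked as the highest of all, so r is a description.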

How the data were processed

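Per the file headers, spots were extracted with Agilent Feature Extraction 10.7.3.1, and the submitters' processing notes list version 9.0. The intensity of each channel was deposited after background subtraction and linear dye scaling, per the file headers. The deposited log10 ratio of Cy5 over Cy3 is also the series value table, which matched the scanner files within 0.00498. Other deposited columns hold flags.

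From these, the log2 ratio of the processed intensities was computed, outlier-flagged spots were dropped, and the median over non-control probes was subtracted per array. Clusters of at least 3 probes were averaged, which gave 13835 clusters from 85655 probes. limma 3.58.1 (R 4.3.3) then tested the diets over all 10 arrays without covariate, per probe and per cluster, with Benjamini-Hochberg adjustment over the whole table and a threshold of 0.05. The fit was tested on simulated data. Alternatives were normexp (offset 50), loess, quantile normalization, one spread, the value table, bright spots, slide block, array weights, probe length, cluster gaps of 300 and 1000 bp, fits of the compared diets and leaving out each array. The members, lists and tests were chosen with earlier results of these data known. Described in full were the highest and lowest cluster of at least 3 probes per locus, and per comparison the 2 clusters and 3 probes of lowest p.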

Additional observations from a re-analysis of the deposited data

How the results depend on the processing

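No Dlx cluster passed the adjusted threshold in limma in any comparison under any alternative run, and the 20 named differences and slopes had no adjusted p below 0.0528 in 407 refits. With normexp background correction all 20 were smaller in size, with no unadjusted p below 0.0806, and 8 changed sign, to -0.084 at Dlx3/Dlx4 A, -0.23 and -0.33 at Dlx5/Dlx6 D probes 6 and 7 (ERD minus STD), -0.29 at Dlx5/Dlx6 D probe 1 (BLD minus STD), 0.032 at Dlx1/Dlx2 C (ERD minus BLD), and slopes of -0.012, -0.039 and -0.056 at Dlx3/Dlx4 A and at probes 6 and 7. It also moved the Dlx1/Dlx2 level to 0.037, the Dlx3/Dlx4 contrast of clusters A and B with C and D to 0.053, and the median over Dlx clusters to -0.031 for BLD minus STD, 0.036 for ERD minus BLD and -0.0019 for the slope. The median for ERD minus BLD was 0.027 with loess, 0.032 with the probe length correction and -0.17 with array weights. Without 1 array, the median ran from 0.012 (without BLD replicate 2) to 0.18 (without STD replicate 2) for BLD minus STD and from -0.19 (without BLD replicate 3) to 0.0066 (without BLD replicate 2) for ERD minus BLD. The causes were not tested. The count of Dlx clusters with an unadjusted p under 0.05 between BLD and STD was 2 (background 11.2%). It was 6 with array weights (background 18.7%), 5 without BLD replicate 3 (18.7%) and 1 without BLD replicate 1 (4.44%). With normexp it stayed at 2 (background 3.59%). Dlx1/Dlx2 C and Dlx5/Dlx6 B, the 2 of the main fit, were not among those. With normexp the count was 1 between ERD and STD (background 8.72%) and 1 for the slope (background 8.98%). Between ERD and BLD the count of the main fit was 1 (background 10.2%). It was 4 without BLD replicate 3 (background 11.8%), 3 with a gap of 300 bp (10.2%) and 0 with normexp (0.484%). Over all clusters of the array, 0 passed the adjusted threshold between ERD and STD, but 10 with quantile normalization and 8 with array weights. With the slide as a random block the lowest adjusted p of a Dlx cluster was 0.413, 0.49 and 0.518 in the 3 pairs of diets. No slide held ERD with another diet, so this block cannot separate ERD from its slides. No paired analysis was possible because the labels carry no replicate number shared between diets. The contrast within Dlx3/Dlx4 was added after the data were seen, and the other alternatives were planned. The number of arrays and the dim spots of Dlx5/Dlx6 D limit the precision.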
